A study of Mus musculus with 20 samples.

Results

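Natural antibodies against the disaccharide Galβ1-3GalNAc were measured on 9 printed glycans that carry it uncovered, out of 419 compounds on the array, of which 406 are glycans. The 9 were taken by their written structure, with galactose β1-3 at the end of the chain on N-acetylgalactosamine (GalNAc), the furanose form of GalNAc included, and with no fucose, mannose, α-linked GlcNAc, sulfate or sialic acid. In 7 of them the structure begins with Galβ1-3GalNAc, and in 2 the same GalNAc also bears a second branch that is written first. Serum of BALB/c mice, an inbred strain, was taken at 10 weeks of age from 12 females and 7 males bought from Harlan and kept free of specific pathogens, and the labels name no treatment and no difference between animals other than sex. Each serum was diluted 1:15 and met all the glycans on 1 array, and bound IgG and IgM were detected together with a biotinylated anti-mouse antibody and Cy5-streptavidin, so the isotypes cannot be told apart. The 20 deposited arrays, named here by the numbers in their titles, were counted as 19 mice, because those of BALB/c-44 and BALB/c-45 agreed in 2664 of 2664 spots, whereas no other pair shared more than 17. The binding of a mouse is given in relative fluorescence units (RFU), the median of 6 spots, and over mice as median ± median absolute deviation (MAD). A signal of at least 4000 RFU was called positive.

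Galβ1-3GalNAc sits at the base of mucin-type O-glycans and at the tip of several glycolipids. Linked α to serine or threonine it is core 1, the Thomsen-Friedenreich (TF) antigen, which normal cells extend or cover with sialic acid and which many carcinomas expose. Addition of GlcNAc β1-6 to its GalNAc makes core 2, the scaffold on which N-acetyllactosamine chains are built. With β-linked GalNAc the disaccharide closes asialo-GM1 of the ganglio series and Gb5 of the globo series. In these mammalian glycans GalNAc carries the pyranose ring, and the furanose ring of glycan 802 is its smaller isomer.

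The α-linked disaccharide was printed on a propyl spacer as Galβ1-3GalNAcα-sp3 (glycan 089) and on a longer one as Galβ1-3GalNAcα-sp5 (132). The core 2 glycans were GlcNAcβ1-6(Galβ1-3)GalNAcα-sp3 (254) and its galactosylated form Galβ1-4GlcNAcβ1-6(Galβ1-3)GalNAcα-sp3 (388). The β-linked disaccharide stood alone as Galβ1-3GalNAcβ-sp3 (088, Tββ) and ended the chains Galβ1-3GalNAcβ1-3Gal-sp4 (262), Galβ1-3GalNAcβ1-4Galβ1-4Glcβ-sp3 (382, asialo-GM1) and Galβ1-3GalNAcβ1-3Galα1-4Galβ1-4Glcβ-sp4 (501, Gb5). The furanose form was Galβ1-3GalNAc(fur)β-sp3 (802), which has the same sugars, linkages and spacer as 088. The amount of each glycan on the slide was not measured in the files, and its part in differences between glycans was not tested.

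Arrays differed in overall brightness. The median of the buffer spots, which carry no glycan, ran from 93.5 to 2044.5 RFU, and the median over all compounds from 126.5 to 1504.5 RFU. The arrays fell into 2 sets, told apart after the values were seen by the ratio of 2 peptide compounds. A dimmer set of 9 (7 females, 2 males) had ratios of 0.63 to 1.86, and a brighter set of 10 (5 females, 5 males) had ratios of 0.01 to 0.06.

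The antibodies of every mouse bound the furanose disaccharide 802, whereas the TF disaccharide on either spacer was positive in no mouse. Core 2 (254) was positive in 4 mice, Tββ (088) in 2 and Gb5 (501) in 1. These counts depended on the scaling between arrays, and after quantile scaling 254 was positive in 0 mice, 088 in 1, 382 in 1 and 501 in 1, while 802 was still positive in 19. Without scaling, the remaining 5 glycans did not reach 4000 RFU in any serum, so 4 of 9 were positive in at least 1 mouse, against 54.9% of all compounds. One of 9 was positive in every mouse (2.15% of all compounds), and this same glycan was the 1 of 9 with a median over 4000 RFU (8.11% of all compounds). Of the 171 values of a glycan in a mouse, 26 were positive (15.2%, against 13.6% over all compounds), and 19 of these belonged to 802. Without 802 the share was 4.61% of 152 values.

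**Figure D1:**
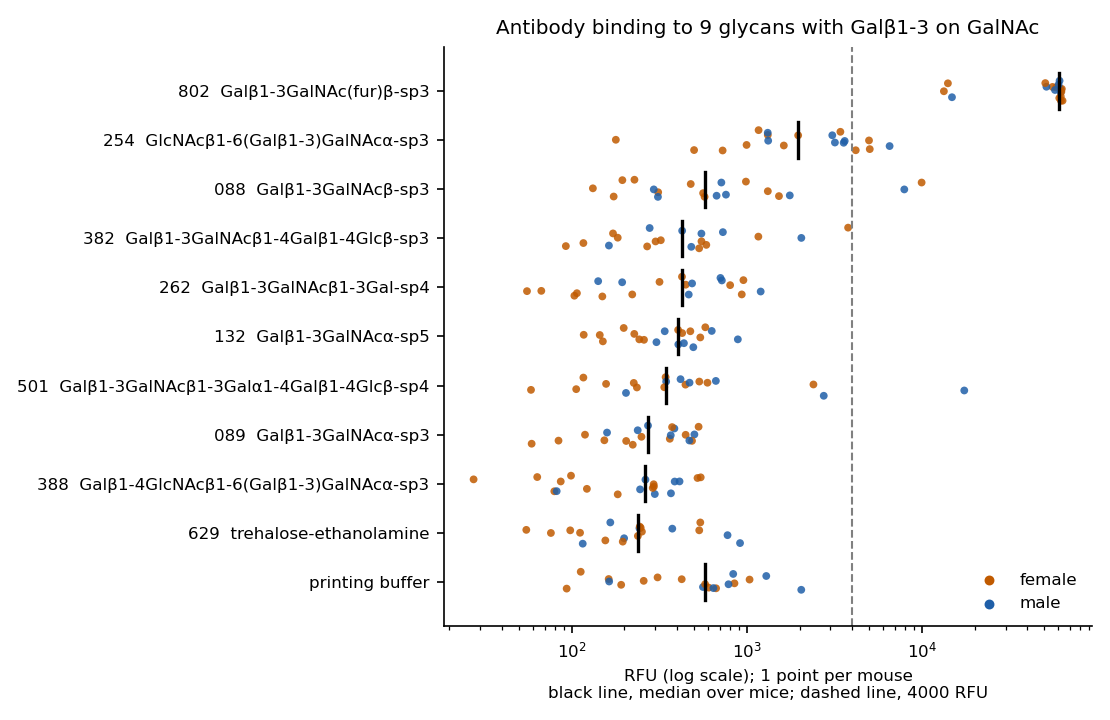
Signal of each Galβ1-3GalNAc glycan in each of 19 mice, with the negative control trehalose-ethanolamine (629) and the buffer spots below; the horizontal axis is RFU on a log scale, points are mice (orange, female; blue, male), black lines are medians and the dashed line is 4000 RFU. Glycan 802 lies above 4000 RFU in all 19 mice, glycan 254 has a median of 1963 RFU, and the other 7 have medians of 263.5 to 573.5 RFU.

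Most of these signals were as low as spots without glycan. Glycan 802 was above the median of the buffer spots of its own array in 19 of 19 mice, 254 in 18, 088 in 12, 132 in 9, 382 and 501 in 7, 262 in 6, 089 in 3 and 388 in 1. Thus 3 of 9 were above buffer in at least 10 mice, against 57.5% of all compounds. Against a stricter background, the brightest block of 6 buffer spots on each array, 802 stayed above in 19 mice, 254 in 10, 088 in 3, 501 in 2 and 382 in 1, and the other 4 glycans in none. The share over all compounds was not computed for this background, so these counts do not set the 9 apart from the array. With the mean of the spots in place of the median, for glycans and buffer alike, 802 was above in 19 mice, 254 in 6, 088 in 3, 089, 382 and 501 in 1 each and the others in none. Over all values of the 9 glycans 82 of 171 (47.95%) were above the buffer median, against 56.3% for all compounds, and by the mean 31 (18.1%, against 18.3%). Trehalose-ethanolamine, the negative control, had a median of 238.5 RFU (range, 55 to 914). Because most signals lay near that of the buffer spots, each paired difference was also computed with signals under the buffer median raised to it.

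Galβ1-3GalNAc(fur)β-sp3 (802) gave 60836.5 ± 2070 RFU (median ± MAD, n = 19). Its signal ran from 13337.5 RFU in BALB/c-17 to 63499.5 RFU in BALB/c-19. In 16 mice it lay between 50617 and 63499.5 RFU, close to the end of the scanner scale, and 88 of its 114 spots held saturated pixels. In 15 of these mice the 2 middle spots, which set the median, were both saturated, so that those values are lower bounds. In BALB/c-106 (51357 RFU) neither was. In 3 mice its RFU was much lower, with 13337.5 RFU in BALB/c-17 (female), 14062.5 RFU in BALB/c-20 (female) and 14835.5 RFU in BALB/c-104 (male). Relative to the buffer median of the same array, 802 was at 142.6 times in BALB/c-17 and 86.5 times in BALB/c-20. In BALB/c-104 it was at 18.9 times, and the median over mice was 93.6 times, with most values saturated. These 3 mice are from both sets of arrays and both sexes, and the lowest of the 6 spots was 12738, 10910 and 12783 RFU, each above 4000 RFU. The highest of the 6 spots was 33904, 60157 and 21039 RFU in the same order, so the spots of BALB/c-17 and BALB/c-20 disagreed widely.

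The same 3 mice were the lowest of all for another glycan with terminal β-galactose, Galβ1-6Galβ1-4Glcβ-sp4 (271), which was chosen for mention after its values were seen. Its signals were 13131 RFU in BALB/c-17, 25140.5 RFU in BALB/c-20 and 39223 RFU in BALB/c-104, and its median over mice was 60328.5 RFU. The sulfated galactose 6-O-Su-Galβ-sp3 (060), chosen in the same way, gave 58604, 62034 and 62105 RFU in these mice, within its range of 57620 to 62417 RFU over all 19. Of the 114 spots of 060, 103 held saturated pixels, so these values are near the scanner limit and do not rank the sera. For 271 the count was 90 of 114.

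**Figure D2:**
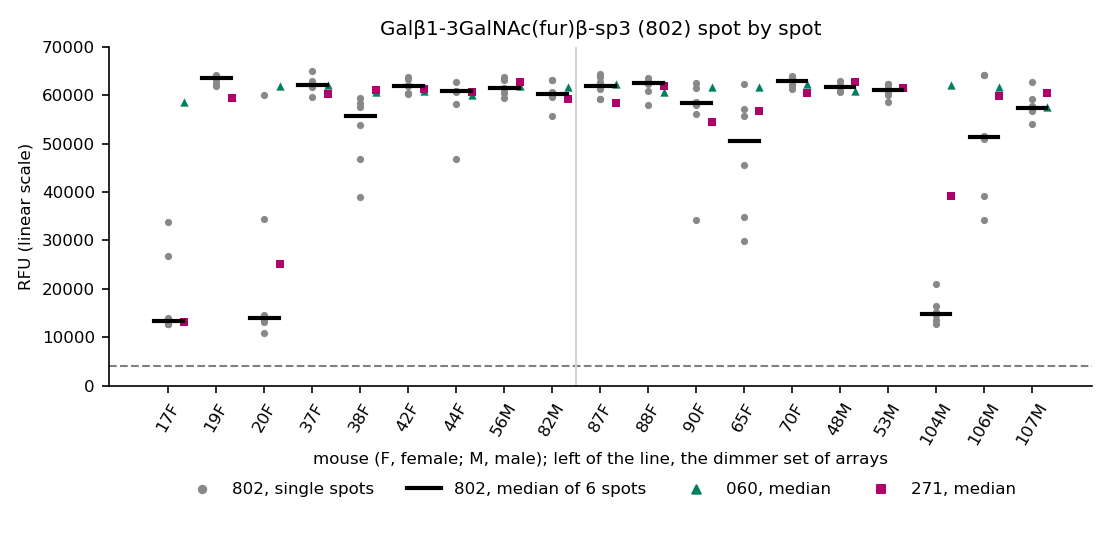
Spots of the furanose disaccharide 802 (grey points, with the median of 6 as a black line) in each mouse, beside the medians of glycans 060 (triangles) and 271 (squares); the vertical axis is RFU on a linear scale, the dashed line is 4000 RFU, and mice left of the vertical line belong to the dimmer set of arrays. BALB/c-17, BALB/c-20 and BALB/c-104 stand at 13337.5 to 14835.5 RFU for 802 and are also the lowest for 271.

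A change of ring form went with a gap in every serum. Glycan 088, the same disaccharide with both anomers, the linkage and the spacer as in 802, had a median of 573.5 RFU, and in 19 of 19 mice it was below 802. Because 802 was saturated in most sera, its side of each gap is cut off, and of the interval only the end nearer to 0 is given. A gap as measured is no lower bound where the partner lies under the buffer. For 388 minus 802 the near end was −7.31 as measured, whereas the difference was −6.71 with dim signals raised to the buffer. The mean difference in log2 RFU (088 minus 802) was −6.15 as measured (near end of the 95% interval, −5.30; permutation test of 100000 sign flips within mice, two-sided, adjusted p = 3.1e-05, which comes from the smallest p the flips can give, 1e-05). Adjustment was over 55 pairs, 36 among the 9 glycans and 19 with partners outside them. The measured gap to 802 was between −7.79 for 388 and −4.65 for 254 over the other 8 glycans, with 802 higher in 19 of 19 mice and adjusted p = 3.1e-05 each time (permutation test). With dim signals raised to the buffer it was −6.71 to −4.56.

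Other terminal sugars on the same furanose ring were far dimmer than the β-galactose of 802. Galα1-3GalNAc(fur)β-sp3 (140), which differs in the anomer of galactose alone, had a median of 584.5 RFU and reached 1212.5 RFU at most, so its range lay wholly below that of 802. The measured difference (802 minus 140), with saturated values of 802 again cut off, was 6.51 (near end of the interval, 6.02; adjusted p = 3.1e-05, permutation test), positive in 19 of 19 mice. With dim signals raised to the buffer it was 6.32. GalNAcα1-3GalNAc(fur)β-sp3 (801) had a median of 624.5 RFU and was below 802 by a measured mean of 5.89 on the log2 scale (adjusted p = 3.1e-05, permutation test). In BALB/c-48 801 gave 59911.5 RFU beside 61810.5 RFU for 802, with all 6 spots of both saturated, so the 2 cannot be ordered in this serum. Without it the mean was 6.22, with saturated values of 802 cut off (adjusted p = 6.5e-05, permutation test). The other serum positive for 801 was that of BALB/c-65, with 7224.5 RFU. These are the same 2 animals whose antibodies were positive for 088.

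Core 2, GlcNAcβ1-6(Galβ1-3)GalNAcα-sp3 (254), was the second brightest of the 9, with 1963 ± 1236 RFU (n = 19). The positive sera were those of BALB/c-106 (male, 6533 RFU) and of the females BALB/c-65 (5032.5 RFU), BALB/c-88 (4982.5 RFU) and BALB/c-87 (4186 RFU). All 4 are among the brighter arrays, whose values ran from 1166.5 through a median of 3495.25 to 6533 RFU, against 178.5, 1316.5 and 3619.5 RFU on the dimmer arrays. The 2 ranges overlapped, and the lowest signal, 178.5 RFU in BALB/c-37, was the only one at or below the buffer spots. Relative to the buffer median of the same array, the order of the sera was another. The highest ratios were on dimmer arrays, 22.1 in BALB/c-56, 14.1 in BALB/c-17 and 12.1 in BALB/c-20. In the 4 positive sera the ratio was 3.2 (BALB/c-106) to 8.71 (BALB/c-65).

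Glycan 254 exceeded every other pyranose glycan of the group. The difference (254 minus the other) was 3.14 for 388 and 2.52 for 262, both in 19 of 19 mice, 2.18 for 382 and 2.09 for 501, with adjusted p from 3.1e-05 to 0.00069 (permutation test). Written the other way, 089 minus 254 was −2.83 (−3.35 to −2.27; adjusted p = 5.5e-05, permutation test), and 254 was higher in 18 of 19 mice, so that adding GlcNAc β1-6 to the TF disaccharide went with a higher signal. Glycan 132 minus 254 was −2.49 and 088 minus 254 was −1.50 (adjusted p = 5.5e-05 and 0.0044, permutation test). All 7 of these differences passed with dim signals raised to the buffer as well, with 2.14 for 254 minus 388 and −1.29 for 088 minus 254.

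Capping the GlcNAc of core 2 with galactose, as in 388, went with a signal at background. Glycan 388 gave 263.5 ± 141.5 RFU, with 27.5 RFU as the lowest and 545 RFU as the highest value, and it was above the buffer spots in 1 mouse. The signal of 388 was below that of 254 in every serum. The measured size of this step, 3.14 on the log2 scale (254 minus 388), depends on how signals under the buffer are treated, and with them raised to the buffer it was 2.14 (1.57 to 2.72). The Galβ1-3 branch of core 2 showed no such step. GlcNAcβ1-6GalNAcα-sp3 (118, core 6), which lacks it, had a median of 1238.5 RFU, and 254 minus 118 was 0.17 (−0.99 to 1.31; adjusted p = 0.79, permutation test), with 254 higher in 10 and lower in 9 mice. The interval spans about 1 log2 unit on each side, so it does not show that the branch makes no difference. Core 6 was positive in 4 mice as well, with 50324.5 RFU or more in BALB/c-90, where 4 of its 6 spots were saturated, and BALB/c-65 was the 1 serum positive for both.

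Exchanging the Galβ1-3 branch of core 2 for GlcNAcβ1-3 gives core 4, GlcNAcβ1-6(GlcNAcβ1-3)GalNAcα-sp3 (255). Core 4 had a median of 602 RFU and a wide range, from 73 RFU to 60827.5 RFU in BALB/c-48, where all 6 spots were saturated. The difference (254 minus 255) was 1.10 (−0.24 to 2.42; adjusted p = 0.14, permutation test) and positive in 13 of 19 mice, which did not pass. Without BALB/c-53 it was 1.41 and passed (adjusted p = 0.045, permutation test). Leaving the branch off the galactosylated form, Galβ1-4GlcNAcβ1-6GalNAcα-sp3 (232), gave 205 RFU, and 388 minus 232 was −0.33 (−0.998 to 0.32; adjusted p = 0.38, permutation test).

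The TF disaccharide gave 272.5 ± 113.5 RFU on the short spacer (089) and 405 ± 146.5 RFU on the long one (132). Over mice 089 ran from 59 to 530 RFU and 132 from 117 to 888 RFU, and neither had a positive serum. Glycan 089 minus 132 was −0.34 (−0.56 to −0.11; adjusted p = 0.012, permutation test), with 132 higher in 13 of 19 mice. This call was lost with dim signals raised to the buffer, where the difference was −0.10 (−0.24 to 0.03; adjusted p = 0.15, permutation test), and with the mean in place of the median of spots it was 0.07. In BALB/c-48 a single spot of 089 was at 18853 RFU while the next brightest of the 6 was at 681 RFU.

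Substituents on the galactose of TF split into those with and those without a higher signal. Fucose α1-2, which makes Fucα1-2Galβ1-3GalNAcα-sp3 (217, blood group H type 3), gave 859 RFU at the lowest, 2561.5 RFU at the median and 9647 RFU at the highest. It was above 089 in 19 of 19 mice, with 089 minus 217 at −3.31 (−3.69 to −2.94; adjusted p = 3.1e-05, permutation test). Sialic acid α2-3, in Neu5Acα2-3Galβ1-3GalNAcα-sp3 (292), gave 591.5, 1543 and 39290.5 RFU in the same order. It too was above 089 in every mouse, and 089 minus 292 was −2.95 (−3.66 to −2.26; adjusted p = 3.1e-05, permutation test). Uncovered TF was thus the dimmest of these 3 in all sera, and the ranges of 089 and of both capped forms did not overlap. With dim signals raised to the buffer the differences were −2.48 for 217 and −2.12 for 292.

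GlcNAc on the same galactose went with no difference past the threshold. The pair of 089 with GlcNAcβ1-3Galβ1-3GalNAcα-sp3 (247) differed by −0.05 (−0.35 to 0.25; adjusted p = 0.77, permutation test) and that with GlcNAcβ1-2Galβ1-3GalNAcα-sp3 (246) by −0.36 (−0.75 to 0.03; adjusted p = 0.10, permutation test). A 6-O-sulfate on the GalNAc (850) gave 183.5 RFU at the median, and 089 minus 850 was 0.31 (−0.14 to 0.73; adjusted p = 0.21, permutation test), or 0.46 without BALB/c-53, where it passed (adjusted p = 0.019, permutation test). The medians of all 4, 089 included, lay between 183.5 and 391.5 RFU.

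The other changes to TF concerned its terminal sugar. The α-galactose isomer Galα1-3GalNAcα-sp3 (078) had 624.5 RFU and was above 089 in 19 of 19 mice, with a difference (089 minus 078) of −0.91 (−1.11 to −0.71; adjusted p = 3.1e-05, permutation test) that shrank to −0.34 with signals raised to the buffer (adjusted p = 0.0013). Neither anomer was positive in any serum. Without galactose, GalNAcα-sp3 (005, the Tn antigen) had a median of 757.5 RFU, was positive in BALB/c-48 and BALB/c-65, and exceeded 089 in 17 mice, both being at or under the floor of 100 RFU in the others. Its difference (089 minus 005) was −1.47 (−2.09 to −0.87; adjusted p = 3.1e-05, permutation test), and −0.80 with signals raised to the buffer (adjusted p = 0.0026). GalNAc β1-3 in place of galactose, GalNAcβ1-3GalNAcα-sp3 (809), gave 258.5 RFU at the lowest, 6976.5 RFU at the median and 29559.5 RFU at the highest and was positive in 13 mice. Here 089 minus 809 was −4.16 (−5.12 to −3.18; adjusted p = 3.1e-05, permutation test), the widest gap between 089 and a partner outside the group.

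The β-linked disaccharide Galβ1-3GalNAcβ-sp3 (088) gave 573.5 ± 345.5 RFU, with 132 RFU as the lowest value. BALB/c-65 (female) reached 9952.5 RFU and BALB/c-48 (male) 7925.5 RFU, and the next was BALB/c-104 with 1758 RFU. In RFU the 2 positive sera, both on brighter arrays, stood far above the rest, and in them 6 and 5 of the 6 spots were at 4000 RFU or more. Relative to the buffer median of the same array, 088 was at 17.2 times in BALB/c-65 and 9.49 times in BALB/c-48. In BALB/c-38, on a dimmer array, it was at 11.7 times, with 1317 RFU. Compared with its α-linked anomer, 088 was brighter in 18 of 19 mice (088 minus 089, 1.33; 0.62 to 2.03; adjusted p = 3.1e-05, permutation test), and with signals raised to the buffer the difference was 0.80 (adjusted p = 0.0014).

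**Figure D3:**
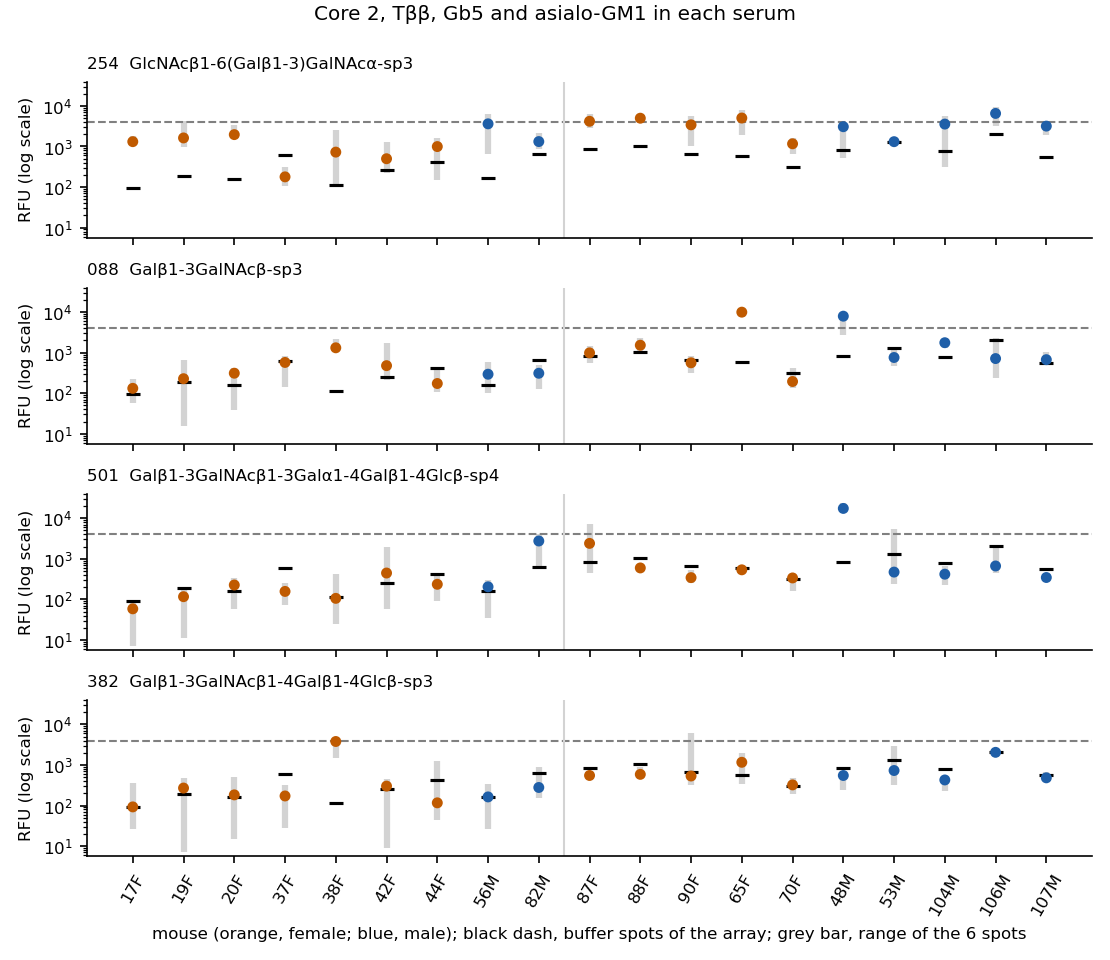
Core 2 (254), Tββ (088), Gb5 (501) and asialo-GM1 (382) in each mouse; the vertical axes are RFU on a log scale, points are medians of 6 spots (orange, female; blue, male), grey bars the range of the spots, black dashes the median of the buffer spots and the dashed line 4000 RFU. BALB/c-65 and BALB/c-48 stand out for 088, BALB/c-48 with 17439 RFU for 501 and BALB/c-38 with 3785.5 RFU for 382.

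Of the outside partners of 088, only the disaccharide with GalNAc β1-3 in place of the galactose differed past the threshold. GalNAcβ1-3GalNAcβ-sp3 (105) had a median of 4404.5 RFU and was positive in 11 mice, and 088 minus 105 was −2.39 (−3.30 to −1.48; adjusted p = 0.00018, permutation test), with 105 higher in 17 mice. For Galα1-3GalNAcβ-sp3 (077) the difference was 0.34 (−0.37 to 1.05; adjusted p = 0.38, permutation test), although 077 was higher in 11 of 19 mice and at the median (763 RFU). For GalNAcβ-sp3 (006) the difference was −0.22 (−1.03 to 0.60; adjusted p = 0.63) and for Galβ1-3Galβ-sp3 (087), in which the inner sugar is galactose, −0.57 (−1.12 to 0.00; adjusted p = 0.071; permutation tests). These 3 did not pass, although the call for 087 did without BALB/c-38 (−0.75) or BALB/c-48 (−0.71) and after quantile scaling (−0.59). In BALB/c-65, 087 gave 9095.5 RFU beside 9952.5 RFU for 088, and in BALB/c-48 it gave 2269 RFU beside 7925.5 RFU.

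**Figure D4:**
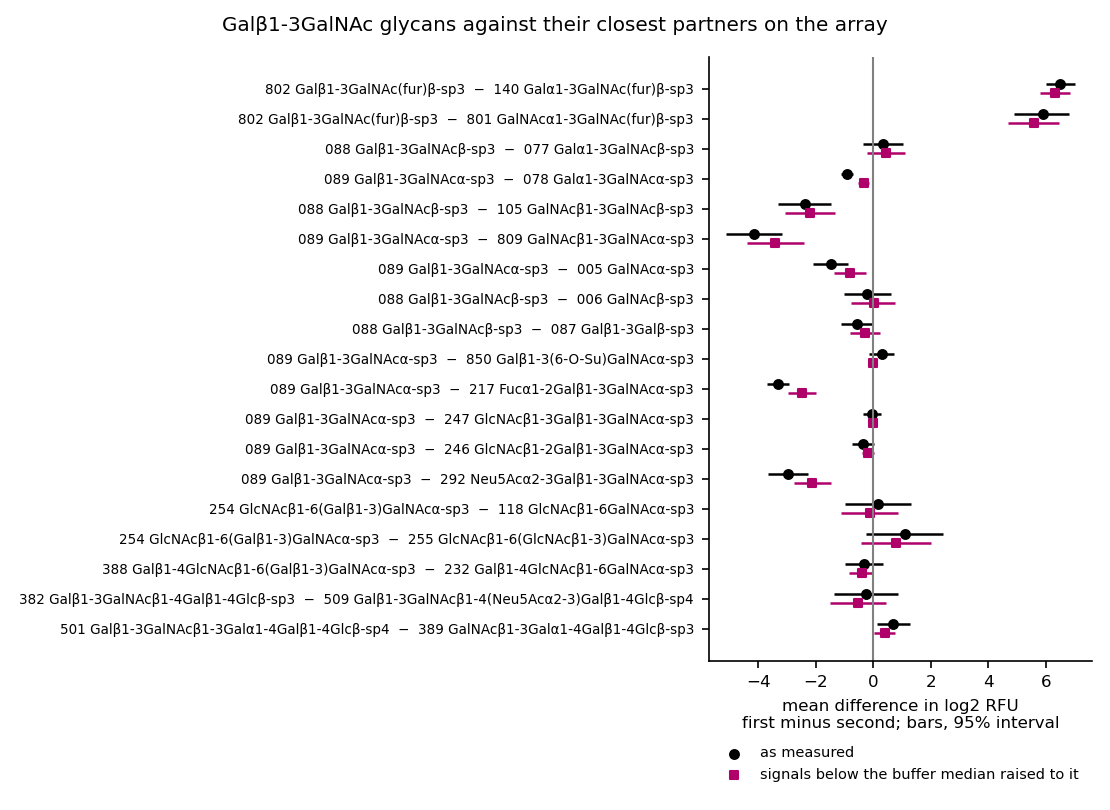
Mean difference in log2 RFU within 19 mice between each Galβ1-3GalNAc glycan and its closest partners outside the group (first minus second; bars, 95% interval), as measured (black circles) and with signals below the buffer median raised to it (red squares). The 2 pairs with 802, which is saturated in most mice, lie at 6.51 and 5.89, and those of 089 with 809, 217 and 292 at −4.16, −3.31 and −2.95.

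Among the chains that end in Galβ1-3GalNAcβ, asialo-GM1 (382) gave 427 ± 159.5 RFU. Its highest sera were those of BALB/c-38 (female, 3785.5 RFU), BALB/c-106 (male, 2046.5 RFU) and BALB/c-65 (female, 1163 RFU), and its lowest value was 92.5 RFU. In BALB/c-38, on an array with a buffer median of 112.5 RFU, 2 of its 6 spots were at 4000 RFU or more, whereas in BALB/c-106 the buffer median itself was 2044.5 RFU. GM1, which adds Neu5Ac α2-3 to the inner galactose (509, on another spacer), had 327 RFU at the median and was positive in 3 mice, and 382 minus 509 was −0.25 (−1.37 to 0.85; adjusted p = 0.70, permutation test). The serum highest for 382, BALB/c-38, gave 144.5 RFU for 509, and BALB/c-106 gave 5113 RFU.

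Gb5 (501) gave 346 ± 189 RFU and was positive in BALB/c-48 (male) alone, with 17439 RFU. All 6 spots were above 4000 RFU there, from 15658 to 24267 RFU. BALB/c-82 (male, 2748 RFU) and BALB/c-87 (female, 2399.5 RFU) followed, and every other serum was at 665 RFU or less. Without its terminal galactose the chain is Gb4 (389, globoside, on another spacer), which had a median of 288.5 RFU and its highest value, 3164.5 RFU, also in BALB/c-48. The difference (501 minus 389) was 0.70 (0.13 to 1.29; adjusted p = 0.026, permutation test), with 501 higher in 13 mice, and 0.39 with signals raised to the buffer (adjusted p = 0.046). BALB/c-48 was thus the highest serum for 501, Gb4 and 801, and the second highest for 088. It was also the highest for 005, 132 and 255, and was positive for 81 of all 419 compounds, against a median of 52 over mice.

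The trisaccharide Galβ1-3GalNAcβ1-3Gal-sp4 (262) holds the last 3 sugars of Gb5, but its inner galactose, α-linked in Gb5, is written without an anomer. It gave 426 ± 284.5 RFU, from 55.5 RFU to 1199 RFU in BALB/c-106. In BALB/c-48, where Gb5 was at 17439 RFU, it gave 465.5 RFU. The 3 longer chains did not differ from each other past the threshold: 262 minus 382 was −0.34 (−0.93 to 0.13), 262 minus 501 was −0.43 (−1.20 to 0.27) and 382 minus 501 was −0.09 (−1.05 to 0.88), with adjusted p of 0.33, 0.37 and 0.86 (permutation tests). The free disaccharide 088 was above 262 by 1.03 (0.31 to 1.74; adjusted p = 0.0069, permutation test), but not past the threshold above 382 (0.68; 0.03 to 1.34; adjusted p = 0.059) or 501 (0.59; −0.22 to 1.40; adjusted p = 0.19).

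Over all pairs, 26 of 36 among the 9 glycans and 9 of 19 with outside partners had an adjusted p under 0.05 (permutation test), and with dim signals raised to the buffer 20 of 36 and 9 of 19 did. Pairs among the other compounds were not tested, so these counts have no share over the array beside them. Of the 26, 15 involved 802 or 254. The 6 that were lost were those of 089 with 132, 382 and 501, and those of 388 with 132, 262 and 382, all between glycans at or below buffer in most mice. The pair of 089 and 501 (−0.74; adjusted p = 0.049, permutation test) was also lost without any 1 of 12 mice. For 089 minus 382, leaving out BALB/c-38 moved the value from −0.65 to −0.39. All 8 pairs with 802 passed within each set of arrays alone. In the 9 dimmer arrays 16 of 36 pairs passed, and of the pairs with 254 those with 088 (−1.62, 088 minus 254) and 382 (2.0, 254 minus 382) did not. In the 10 brighter arrays 25 of 36 passed, and the pairs of 088 with 262 (0.88) and of 089 with 132 (−0.38) did not pass.

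Between the sexes, none of the 9 glycans differed past the threshold, against 1.67% of all 419 compounds by limma and 1.43% by an exact permutation test (adjusted over 419 compounds). Unadjusted p under 0.05 was found for 501 by limma and for 132 by the exact test. Glycan 802 had 13337.5, 61420.75 and 63499.5 RFU as the lowest, median and highest of 12 females and 14835.5, 60276 and 61810.5 RFU in 7 males. The groups overlapped almost wholly, and females minus males differed by −0.04 in mean log2 RFU (−0.75 to 0.66; limma, adjusted p = 0.93), an interval that leaves out any difference above the scanner limit. For core 2 (254), females had 178.5, 1471 and 5032.5 RFU and males 1315.5, 3182.5 and 6533 RFU. Its difference was −0.93 (−2.31 to 0.45; limma, adjusted p = 0.39).

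The widest difference between the sexes was that of Gb5 (501), with 58.5, 286.5 and 2399.5 RFU in females and 204, 470.5 and 17439 RFU in males. It amounted to −1.60 (−3.14 to −0.06; limma, adjusted p = 0.28) and to −0.89 without BALB/c-48. For the other 6 glycans it was −0.77 (132) to −0.42 (382). All compounds together were also dimmer in females, with a median difference of −0.75 and 385 of 419 compounds lower, and 7 of 12 females but 2 of 7 males are on the dimmer arrays. Within the 2 sets of arrays the differences of the 9 glycans averaged −1.20 (501) to 0.03 (802). Scaling by quantiles or against the buffer spots turned the sign of 7 and 8 of the 9, so no direction between the sexes can be given.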

How the data were processed

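The authors scanned each array at 1 wavelength and read it with ScanArray Express 4.00. Per the file headers, the deposited intensity of a spot is its pixel mean, and local background, the intensity minus that background, the percent of saturated pixels and a flag for spots not found were deposited beside it. Medians, MADs and animal counts in the authors' table of the series were not used. The glycans, partners and tests were chosen with earlier results of these data known. They were described by the rule on structure, their 19 outside partners, the negative control, 2 peptide compounds and, after seeing values, 060 and 271.

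The RFU of a compound is the median intensity of its 6 spots, with local background left in, spots not found kept and no scaling between arrays. The file headers name LOWESS as the normalization method, a method for 2 channels, and whether it altered the deposited intensities of these 1-channel scans is not known. Before log2, values were raised to 100 RFU. Pairs were tested within mice with 100000 sign flips, two-sided, adjusted after Benjamini and Hochberg over 55 pairs. Sex was tested across 419 compounds with limma 3.58.1 (R 4.3.3) and an exact permutation test over 50388 assignments, two-sided. Mice were housed in separate cages, per the labels, and their litters are not given in the sources used here. Other steps used Python 3.11.15 with scipy 1.17.1, pandas 2.3.3, numpy 2.4.6 and, for plots, matplotlib 3.10.9, and were tested on simulated data. Per array, 54 buffer spots were read, and the number of arrays limits the precision. Alternatives were other summaries of spots, background correction, scaling, floors, thresholds, sets of arrays, treatment of the identical arrays and leaving out each mouse.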

Additional observations from a re-analysis of the deposited data

Results flagged for a closer look

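In the 7 males, 4 values lay further from the other animals than the gap test of Dixon allows at 95%. Each glycan of the group was tested at its highest and at its lowest value. For normally distributed values, chance alone passes this test in about 1 of 20 groups. The test was run on RFU and not on the log2 values used for pairs and sexes. Where a few sera are far brighter than the rest, the rate of chance passes in RFU is not known. BALB/c-48 was high for 088 (7925.5 RFU) and for 501 (17439 RFU), BALB/c-106 was high for 382 (2046.5 RFU), and BALB/c-104 was low for 802 (14835.5 RFU). For 802 the range of the males ends at 61810.5 RFU in BALB/c-48, where all 6 spots were saturated. Its true width is not known, so the test cannot decide this value. The 12 females were not tested in this way. In BALB/c-106 the buffer spots, at 2044.5 RFU, were the brightest of all arrays, and in BALB/c-104 the glycan 060 gave 62105 RFU.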

How the results depend on the processing

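The sexes could not be compared in pairs, because they share no mouse numbers in the labels. Members of a pair were compared within mice throughout. The count of called pairs among the 9 glycans was 26 and moved to 16 within the 9 dimmer arrays alone, against 25 within the 10 brighter ones; the cause was not tested. Leaving out each mouse in turn gave 25 to 27, and 9 to 11 for outside pairs. Of 171 values, 82 were above buffer, and 31 with the mean of the spots, an alternative chosen after seeing the data; the cause was not tested there either. Signs turned for these uncalled or dim pairs: 089 minus 132 (mean of the spots, 0.07), 089 minus 247 (mean of the spots, 0.28; dimmer arrays, 0.15), 254 minus 118 (log2 of RFU + 500, −0.11; raised to the buffer, −0.12; brighter arrays, −0.33), 088 minus 006 (raised, 0.01), 089 minus 850 (raised, −0.01) and 382 minus 509 (brighter arrays, 0.15). Leaving out 1 mouse gave −0.11 to 0.01 for 089 minus 247, −0.03 to 0.39 for 254 minus 118 and −0.53 to 0.03 for 382 minus 509. Of the other values of pairs under settings other than leaving out 1 mouse, 410 kept sign and call, 29 lost the call and 2 gained it, both for 088 minus 087 (quantile scaling, −0.59; both identical arrays kept, −0.61). Of those with 1 mouse left out, 835 kept both, 12 lost the call (089 minus 501) and 4 gained it: 088 minus 087 without BALB/c-38 or BALB/c-48, and 089 minus 850 and 254 minus 255 without BALB/c-53. The sex differences turned under quantile scaling for 088 (0.24), 089 (0.24), 132 (0.07), 262 (0.03), 382 (0.26), 388 (0.12) and 802 (0.24), and relative to the buffer median for 088 (0.41), 089 (0.66), 132 (0.31), 254 (0.15), 262 (0.35), 382 (0.67), 388 (0.52) and 802 (1.04). For 802 they also turned with the mean of the spots (0.03) and the set of arrays as a block (0.03), and ran from −0.33 to 0.12 when a mouse was left out. No alternative called a sex difference for the 9 glycans by limma, and 2 medians moved by over 1 MAD, that of 089 to 418.9 RFU with normexp and that of 802 to 57773.8 RFU with quantile scaling. After quantile scaling 254 was positive in 0 mice, 088 in 1 and 382 in 1. With a threshold of 2000 RFU, 254 was positive in 9, 501 in 3 and 382 in 2 mice, and with 8000 RFU 254 was positive in 0 and 088 in 1. Saturation cuts off the 802 side of the gaps to it, and their size also depends on how dim signals are treated.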
